A study of Homo sapiens with 6 samples.

Results

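The genes described here encode the machinery that starts transcription in human cells, namely the subunits of RNA polymerases I, II and III, the Mediator complex and the general transcription factors. They were chosen by symbol as every target whose name starts with POLR1, POLR2 or POLR3, with MED or TAF and a digit, or with GTF2A, GTF2B, GTF2E, GTF2F, GTF2H or GTF3C, together with TBP. This gave 106 of 20664 targeted genes and microRNAs, and 480 of 106244 targeting sgRNAs. A pooled CRISPR knockout screen supplied the data: MDA-MB-231 cells, a line from a human triple-negative breast cancer, expressed Cas9 and received the lentiviral GeCKO v2 sgRNA library, so that most cells carry 1 knockout each. After 7 days in puromycin, which kills cells without a vector, the cells spent 7 days in the solvent DMSO or in 10 µM erlotinib, an inhibitor of the EGFR kinase. Both conditions share the cell line, Cas9, the library and the selection. Each condition has 3 libraries of sgRNAs amplified from genomic DNA and sequenced, and although the study's general statement on replicates names independent cultures, neither it nor the labels say so of the screen, so the spread between libraries may be technical.

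RNA polymerase I makes the precursor of the large ribosomal RNAs, RNA polymerase II makes messenger RNA, and RNA polymerase III makes transfer RNA and other small RNAs. At an RNA polymerase II promoter TFIID, built of TBP and TBP-associated factors (TAFs), marks the start site, and TFIIA and TFIIB fix it there. TFIIF brings in the polymerase, TFIIE brings in TFIIH and TFIIH opens the DNA, while Mediator relays signals from activators. SL1 does the work of TFIID for RNA polymerase I, and TFIIIC recognises the genes of RNA polymerase III. Cells cannot divide for long without most core subunits, so sgRNAs against them are often lost from a growing population, whereas several members have a tissue-restricted paralogue.

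The sgRNAs on which the results turn are printed 5′ to 3′ with the 12 bases next to the PAM, the part of the guide that tolerates mismatches least, in capitals. Their orientation was checked on the 472 sgRNAs of the table that lie in the RefSeq start-site window of their own gene in GRCh38.p14, where 100% were followed by NGG. The first set holds the member sgRNAs with the highest counts in an erlotinib library.
MED1: gacttgacGCACAAGCTTAA
MED18: caggtactCCATCATGTTAA
TAF5, sgRNA in erlotinib 3: ggctgaacCTGAGACGACCG
TAF5, sgRNA in erlotinib 1: agggtaagCAGTCCGGCCCA
GTF3C1: gcttccacCATTGTACAGCG
TAF9B, sgRNA with the higher count: gcacttacCAAGGCATCTCT
TAF9B, sgRNA with the lower count: aacatttgATTTATAACCCT
MED12L: cacttaccCAAATTCGGATC
GTF2H3: gcaagcatTAAAGGAATCTC

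The next set holds sgRNAs of 4 genes that had no count in any of the 6 libraries, all listed sgRNAs of these genes being shown.
GTF2B, sgRNA a: gaacaatgAGCAGTTCTGAT
GTF2B, sgRNA b: tgagaatcTCCAACTCGAGA
GTF2B, sgRNA c: tgctcattGTTCTCCGATTC
POLR2D, sgRNA a: actgaaagCTGCGCTTTGTC
POLR2D, sgRNA b: agaccattGCCAGTGTTCGT
POLR2D, sgRNA c: tagcactcACCTACGAACAC
POLR2D, sgRNA d: tcctctacGTCGCCAGCCCG
POLR2E, sgRNA a: catcacacGGGCTCTCATCG
POLR2E, sgRNA b: catgacacCCTCCGCCAAGC
POLR2I, sgRNA a: caacaagaTCACGCACGAAG
POLR2I, sgRNA b: cggcccgcGCACTGTGTGAC

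The last set shows the opposite pattern, sgRNAs found in all 3 DMSO libraries, of which the members had 23.
TAF15, sgRNA a: gacactgtTGCCTCCCCCTT
TAF15, sgRNA b: ttaggttaTTCACAGTCCTA
TAF1L, sgRNA a: attgggagGATTCTATCATC
TAF1L, sgRNA b: cttgcagcCCCTTTACCACT
MED12: taactgctCCCATAAGTACT
POLR2A: tgcccttcAACCGCTGCTTC

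For 3 member sgRNAs the RefSeq start-site window also gave the position. The GTF3C1 sgRNA tgaagtagCAATGGACGCGC lies on chromosome 16 at 27549881 to 27549900, minus strand, 14 to 33 bases from the start site, and had 166, 0 and 14 counts in DMSO. The MED29 sgRNA acgcagtcGTAACGCACTTC lies on chromosome 19 at 39391383 to 39391402, plus strand, and had 0, 85 and 83. Its neighbour atcttcctCGCGTAGACCGC, at 39391405 to 39391424 on the minus strand, had no count, so a pair of sgRNAs within the first bases of MED29 differed in detection. None of the 3 had a count in erlotinib.

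Over the whole table, the total count per library was 1574743 to 4263494 in DMSO and 1773235 to 3332895 in erlotinib. An sgRNA was called detected in a library with at least 1 count. On average 38468 of 107237 listed sgRNAs were detected in a DMSO library and 2106 in an erlotinib library, so every comparison of the conditions below is set against a loss of most sgRNAs of all kinds. A count of 0 allows up to 3 counts, which is 0.704 to 1.91 CPM (counts scaled to a common library total) in DMSO and 0.900 to 1.69 CPM in erlotinib. This floor covers counting error only. The intervals given treat the listed sgRNAs as independent draws, which sgRNAs of 1 gene are not, and they leave out the spread between libraries. A lower count can come from fewer cells with the sgRNA or from fewer copies amplified per cell, which cannot be told apart here, and reads are not single molecules.

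sgRNAs against the transcription machinery were found less often in DMSO than the other targeting sgRNAs. In DMSO 1, 2 and 3 they were detected at 34.2%, 25.6% and 26.2%, against 39.1%, 33.4% and 34.6% of the other 105764 targeting sgRNAs. The means were 28.7% ± 4.76 and 35.7% ± 3.00 (SD, n = 3), and the ratio within a library was 0.80 ± 0.064. The members lay below the others in each of the 3 libraries, although the ranges of the 3 values overlap between the sets. Non-targeting sgRNAs, which cut no gene, stood at 56.9% ± 4.40, and sgRNAs against olfactory receptors, the odour sensors of the nose, at 38.1% ± 2.83. In CPM per listed sgRNA the non-targeting sgRNAs stood at 17.8 to 18.5 in the DMSO libraries, against 9.25 for the other targeting sgRNAs. The data hold no library from before the treatment, so whether non-targeting sgRNAs started at a higher level was not tested. Over the 3 libraries together 283 of 480 member sgRNAs (59.0%, 95% Wilson interval 54.5 to 63.3) were detected, against 69.0% (68.8 to 69.3) of the others. Where a member sgRNA was detected it was about as abundant as any other, with median counts of 87, 49 and 33.5 against 87, 49 and 31 in DMSO 1, 2 and 3. These shares describe the members and carry no test, since sgRNAs of 1 gene and genes of 1 complex are not replicates.

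All 9 complexes had a mean DMSO detection below that of the other sgRNAs, with ratios from 0.675 to 0.925, and 6 of 9 were below in each of the 3 libraries. The exceptions were TFIIH, TFIIIC and the TAFs outside TFIID, each below in 2 of 3. TFIIA, TFIIB, TFIIE and TFIIF together had the lowest ratio, 0.675 ± 0.186, and RNA polymerase II was next at 0.701 ± 0.0825. The order of neighbouring complexes was within the spread between libraries, and differences between complexes were not tested.

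RNA polymerase I and SL1 (9 genes, 39 sgRNAs) were detected at 28.2%, 25.6% and 25.6% in the DMSO libraries. This set includes POLR1C and POLR1D, which RNA polymerases I and III share and whose 8 sgRNAs were detected at 50%, 25% and 25%. POLR1A, the catalytic subunit of RNA polymerase I, had the lowest DMSO level of the complex per listed sgRNA, with counts summed over its sgRNAs of 0, 52 and 0. TAF1D of SL1 had the highest, with 356, 386 and 100, or 107 ± 59.4 CPM.

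RNA polymerase II (15 genes, 45 sgRNAs) was detected at 31.1%, 22.2% and 22.2%, and over the 3 libraries only 23 of its 45 sgRNAs (51.1%) were found. POLR2A, the largest subunit, whose tail is phosphorylated during transcription, had the highest level of the complex per listed sgRNA, with 115, 144 and 90 counts, or 49.8 ± 20.2 CPM. POLR2M, a protein bound to the polymerase, had 388, 76 and 51. POLR2D of the stalk, POLR2E, which RNA polymerases I, II and III share, POLR2I and POLR2J3 had no count at all. Subunits specific to RNA polymerase II (10 genes) were detected at 24.0% ± 9.02 and the 5 subunits shared by RNA polymerases I, II and III at 28.2% ± 4.44. POLR2J, POLR2J2 and POLR2J3 are near-identical copies, and 1 sgRNA each of POLR2J and POLR2J2 differs by 1 base, so counts of this family are uncertain.

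RNA polymerase III (10 genes, 46 sgRNAs), counted without the subunits it shares with the other polymerases, was detected at 32.6%, 21.7% and 30.4%. Its catalytic pair differed, with POLR3A at 119, 35 and 57 counts and POLR3B at 0, 0 and 25. TFIIIC (6 genes, 26 sgRNAs) was detected at 46.2%, 30.8% and 19.2%, so DMSO 1 lay above and DMSO 3 below the other sgRNAs. Without DMSO 3 the ratio of TFIIIC to the other sgRNAs was 1.05 in place of 0.885. GTF3C6, a small subunit, was highest at 442, 15 and 69 counts and GTF3C2 lowest at 103, 40 and 0.

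Mediator (30 genes, 149 sgRNAs) was detected at 35.6%, 21.5% and 29.5%, a mean of 28.9% ± 7.07. The means of its head, middle and tail modules lay within this spread, and differences between modules were not tested. The head and middle, which touch the polymerase, stood at 25.8% ± 6.63 (12 genes) and 26.5% ± 7.83 (8 genes). MED14, the scaffold that joins the modules, had 1 of 4 sgRNAs in 1 library, with 43 counts in DMSO 2. The tail, which binds activators, stood at 32.2% ± 18.4 (5 genes), and it was at 53.3% in DMSO 1 and 20% in DMSO 3. The kinase module, a detachable regulator made here of MED12, MED13 and their paralogues, stood at 39.1% ± 8.70 (4 genes), a ratio to the other sgRNAs of 1.10 ± 0.251. MED13, which ties the kinase module to the core, had the highest level of Mediator with 373, 5 and 281 counts, and MED12, which activates its kinase, had 201, 124 and 155. MED30 of the head had no count in any library for its 3 sgRNAs.

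TFIID (18 genes, 90 sgRNAs) was detected at 36.7%, 28.9% and 31.1%. Its 13 TAFs stood at 30.2% ± 3.93 and 4 paralogous TAFs at 42.4% ± 2.62, and the paralogues were above the other sgRNAs in each of the 3 libraries, with a ratio of 1.19 ± 0.0311. TBP, which binds the TATA box and serves RNA polymerases I, II and III, had 90, 0 and 0 counts from 1 of 4 sgRNAs. TAF1, the largest TAF, had 37, 68 and 0.

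TFIIA, TFIIB, TFIIE and TFIIF (8 genes, 37 sgRNAs) were detected at 32.4%, 24.3% and 16.2%, and 17 of their sgRNAs (45.9%) were found in any DMSO library. GTF2B, the only gene of TFIIB, had no count for its 3 sgRNAs, which allows a share of up to 56.1% by the Wilson interval. TFIIH (7 genes, 32 sgRNAs), which unwinds promoters and repairs DNA, was detected at 21.9%, 40.6% and 15.6%. GTF2H4 was its highest member with 65, 88 and 279 counts. GTF2H2, GTF2H2C and GTF2H2D are near-identical copies and their values are uncertain; GTF2H2D, the lowest, had 78, 0 and 0.

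The 3 TAFs outside TFIID and SL1 separated by kind. TAF15, an RNA-binding protein of the FET family, was detected at 66.7%, 50% and 50% and had 634, 310 and 205 counts, or 140 ± 9.28 CPM, so its 3 libraries were alike after scaling. TAF5L and TAF6L of the SAGA coactivator were detected at 20% ± 10, and TAF6L was the lowest of the 3 with 41, 70 and 0 counts. Without DMSO 3 the ratio of this set to the other sgRNAs was 1.03 in place of 0.925.

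Member genes without any count were more frequent than elsewhere in the table. GTF2B, MED30, POLR2D, POLR2E, POLR2I and POLR2J3 were at 0 in all 6 libraries, 6 of 106 (5.66%), and 274 of all 20664 targets (1.33%) had no DMSO count. The members also have fewer sgRNAs listed, 4.53 per gene against 5.32 for other protein-coding symbols, which moves with this result and whose part in it was not tested. Among genes with 1 to 3 listed sgRNAs 5 of 20 members (25.0%) and 121 of 888 others (13.6%) had no DMSO count, and among genes with 4 to 6 it was 1 of 86 members (1.16%) and 63 of 17894 others (0.352%). Detection itself was lower for members at each listed number from 3 to 6 in all 3 DMSO libraries, for example at 6 with 32.7% ± 5.74 against 36.2% ± 3.00. At the other end, 55 of 106 member genes (51.9%) had a count in each of the 3 DMSO libraries, against 70.1% of all targets.

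Paralogue pairs gave a comparison inside the machinery, between a subunit and a related gene, in several pairs a germ-cell form. Which gene of a pair cells use more widely was not checked. sgRNAs of the 8 paralogues were detected at 39.7% ± 5.99 in DMSO and those of the 8 partner genes at 26.4% ± 6.71, and the paralogue was detected more often in 5 of 8 pairs. TAF1L, a testis form of TAF1, had 910, 249 and 188 counts against 37, 68 and 0 for TAF1. Per listed sgRNA this was 24.8 ± 9.38 against 2.63 ± 3.18 CPM, a ratio of 9.40, with ranges that did not overlap. TAF9B had 398, 112 and 143 counts against 114, 19 and 0 for TAF9, or 13.1 ± 3.98 against 2.36 ± 2.73 CPM per listed sgRNA, again without overlap. These were the only 2 of 8 pairs whose ranges were apart. Both genes of a pair were read in the same 3 DMSO libraries, which are too few for a test, so none of the pairs was tested.

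In the other pairs the libraries overlapped. GTF2A1L, a germ-cell form of a TFIIA subunit, stood at 13.3 ± 9.12 CPM per listed sgRNA and GTF2A1 at 2.51 ± 2.19. MED12L stood at 14.7 ± 10.5 and MED12 at 11.2 ± 4.56. MED13L ran the other way, at 2.71 ± 2.05 against 14.9 ± 14.7 for MED13. TAF7L and TAF7 were at 10.7 ± 5.37 and 10.8 ± 9.56, TAF4B and TAF4 at 6.03 ± 2.85 and 5.53 ± 1.49, and POLR3GL and POLR3G at 5.34 ± 4.73 and 5.22 ± 2.65. For these last 3 pairs and for MED12L and MED12 the means were within 1 SD of each other. The means of MED13 and MED13L differed by less than the SD of MED13, and MED13L was the higher in 1 of 3 libraries. Without the 8 paralogues the members were detected at 27.6% ± 4.75 in DMSO, still below the other sgRNAs in 3 of 3 libraries.

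In erlotinib few member sgRNAs were left. They were detected at 1.88%, 0.833% and 1.04% in erlotinib 1, 2 and 3, a mean of 1.25% ± 0.551, and the other targeting sgRNAs at 2.05%, 1.77% and 2.02%, a mean of 1.95% ± 0.155. Again the members were below in 3 of 3 libraries, with ranges that overlap. The 18 detected member sgRNAs belonged to 15 genes, and each was present in 1 erlotinib library only. This was common in the table, where 5654 other targeting sgRNAs detected in erlotinib gave 6182 detections over the 3 libraries. No sgRNA of RNA polymerase III or of the TAFs outside TFIID and SL1 had a count, and Mediator had 6, TFIID 5, RNA polymerase I and SL1 2, TFIIIC 2, and RNA polymerase II, TFIIH and the TFIIA to TFIIF set 1 each. A count in any erlotinib library was found for 15 of 106 member genes (14.2%) and for 24.1% of all targets.

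A handful of these sgRNAs reached very high counts. The MED1 sgRNA gacttgacGCACAAGCTTAA had 0, 0 and 20 counts in DMSO and 8429, 0 and 0 in erlotinib, ranking 41 of 2224 detected sgRNAs in erlotinib 1. MED1 is the Mediator subunit that nuclear receptors bind. The MED18 sgRNA caggtactCCATCATGTTAA had 90, 0 and 33 counts in DMSO and 0, 0 and 5948 in erlotinib, ranking 142 of 2183 in erlotinib 3. MED18 belongs to the head module. TAF5, a TAF that TFIID needs for its assembly, was the only member gene counted in 2 erlotinib libraries, through different sgRNAs: ggctgaacCTGAGACGACCG had 2006 counts in erlotinib 3 and agggtaagCAGTCCGGCCCA had 183 in erlotinib 1, and neither had a count in DMSO. The other 16 of the 18 detected sgRNAs had been seen in DMSO, as had 78.1% of the 5654 other targeting sgRNAs detected in erlotinib.

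The GTF3C1 sgRNA gcttccacCATTGTACAGCG had 1881 counts in erlotinib 1 after 1, 0 and 0 in DMSO. GTF3C1 encodes the largest TFIIIC subunit. TAF9B had 1620 and 848 counts of its pair of sgRNAs, both in erlotinib 1, and MED12L 972 in the same library. GTF2H3 had 844 counts in erlotinib 3. The remaining counts lay between 1 and 183, below the median of detected sgRNAs in their library except for TAF5, which had 183 against a median of 133: POLR2A had 130 in erlotinib 2 against a median of 197.

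The members' share of all counts varied widely between erlotinib libraries, at 0.692%, 0.0124% and 0.266%, with MED1 alone making up 60.1% of the member counts of erlotinib 1. In DMSO the share was 0.396%, 0.347% and 0.361%, and the members are 0.448% of the listed sgRNAs. The means, 0.323% ± 0.343 in erlotinib and 0.368% ± 0.0256 in DMSO, differed by less than the spread between erlotinib libraries.

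**Figure D1:**
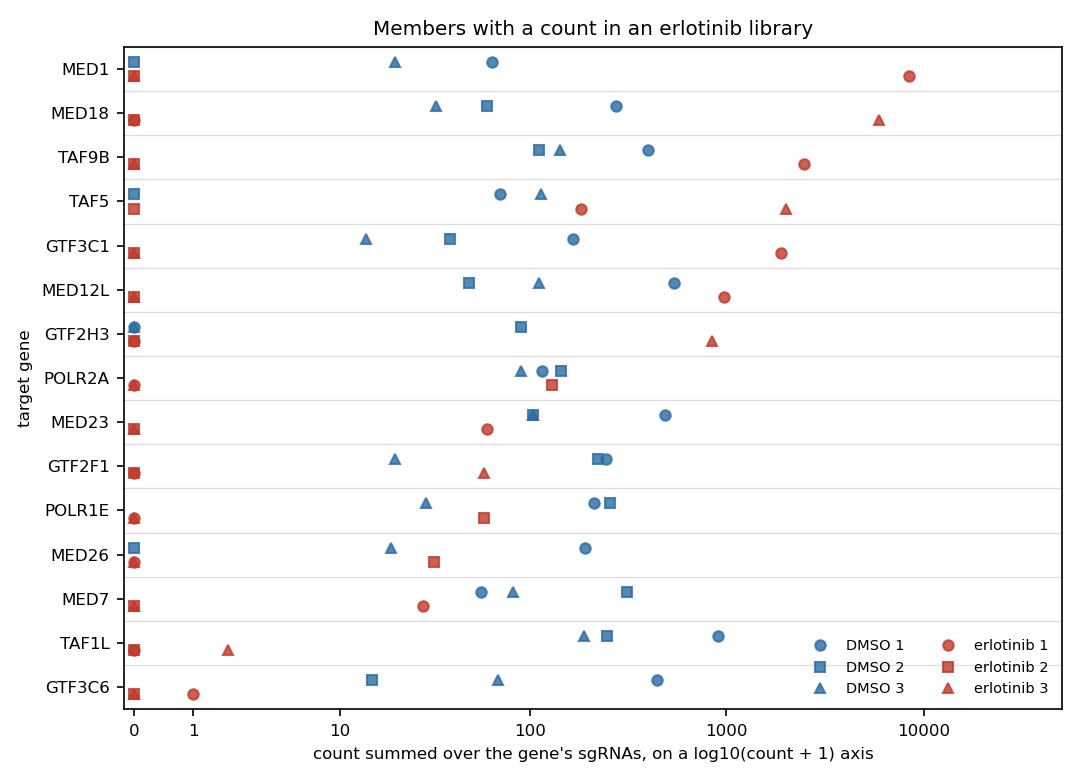
Counts summed over the sgRNAs of each member gene (horizontal axis, log10 of count + 1) in the 3 DMSO and 3 erlotinib libraries, for the 15 members with a count in erlotinib. Only TAF5 has a count in 2 erlotinib libraries, and MED1 and MED18 reach 8429 and 5948 in 1 library each.

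Summed per gene, 62 of the 100 member genes with a count were lower in erlotinib, none was higher and 38 did not pass the test (edgeR quasi-likelihood test, adjusted p under 0.05). Across all targets 69.2% of 20409 were called lower and 0% higher, so the members' share of 62.0% was close to the background and below it. No member had an unadjusted p under 0.05 in the higher direction, and DESeq2 called 0 members higher as well. Of the 100 genes, 85 were at 0 in all erlotinib libraries, against 75.6% of all targets. With each of these at the bound its floor allows, the median log2 fold change was -4.28 for members and -4.80 for all targets; fitted values, which depend on the prior count there, gave -10.83 and -11.28. Scaling by library totals in place of the upper quartile moved the median of all targets from -11.28 to -9.32, and the members' from -10.83 to -8.93. With that scaling 50 of 100 members and 61.1% of all targets were called lower.

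By complex, the genes called lower were 9 of 10 in RNA polymerase III, 5 of 6 in TFIIIC, 13 of 18 in TFIID, 2 of 3 of the other TAFs, 17 of 29 in Mediator, 4 of 7 in TFIIH, 5 of 9 in RNA polymerase I and SL1, 3 of 7 in the TFIIA to TFIIF set and 4 of 11 in RNA polymerase II. Whether the complexes differ was not tested, and the DMSO level moves with the call. Among member genes under 5 CPM in DMSO 0 of 1 were called (others 0%) and at 5 to 10 CPM 0 of 10 (others 2.88%). The calls were 6 of 20 at 10 to 20 CPM (30.0%, others 41.3%) and 25 of 31 at 20 to 40 CPM (80.6%, others 77.1%). They were 26 of 33 at 40 to 80 CPM (78.8%, others 77.5%) and 5 of 5 above 80 CPM (others 73.4%). From 20 to 80 CPM members were thus called about as often as other targets.

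**Figure D2:**
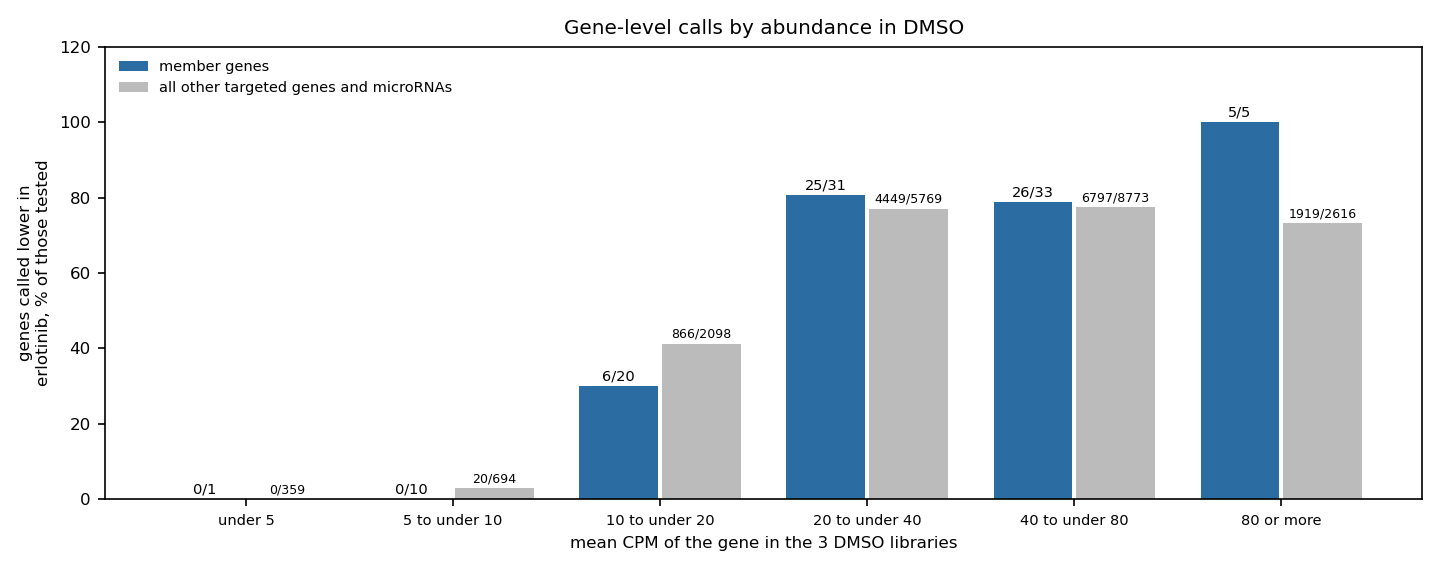
Percent of tested genes called lower in erlotinib (vertical axis) by mean DMSO CPM (horizontal axis) for members and for other targets, with the number called and tested. Both sets rise from 0% below 5 CPM to over 75% from 20 to 80 CPM.

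The genes with the smallest p were MED12, MED25 and GTF2H5. MED12 had 201, 124 and 155 counts in DMSO and 0 in erlotinib, at least 49.6-fold lower (edgeR adjusted p = 0.00385). MED25, a tail subunit that activators bind, was at 53.9 ± 16.2 CPM in DMSO and at least 39.7-fold lower, and GTF2H5, the smallest TFIIH subunit, at 77.3 ± 34.5 CPM and at least 57.0-fold lower. TAF15 was at least 103-fold lower, TAF1D 79.1-fold, MED13 65.9-fold, GTF2H4 57.0-fold and POLR3A 19.6-fold, each at 0 in all erlotinib libraries and each called. TAF1L, with 2 counts in erlotinib 3, and GTF3C6, with 1 in erlotinib 1, were also called lower (edgeR adjusted p = 0.00460 and 0.00477). GTF3C2 (adjusted p = 0.0494) was no longer called without any 1 of DMSO 1, DMSO 2 or the 3 erlotinib libraries (0.0755 to 0.127), POLR3GL (0.0398) without DMSO 1, DMSO 3 or any erlotinib library (0.0590 to 0.111), TAF7 (0.0295) without DMSO 1 (0.0844) or DMSO 3 (0.0805) and MED13L (0.0202) without DMSO 2 (0.0796), in the same edgeR fit.

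Several core subunits did not pass, and most of these had low DMSO levels. TBP at 7.04 ± 12.2 CPM, POLR1A at 7.86 ± 13.6, MED14 at 6.50 ± 11.3 and POLR3B at 5.29 ± 9.17 were all at 0 in erlotinib, with edgeR adjusted p of 0.112, 0.116, 0.122 and 0.132. TAF1, TAF6L, TAF9 and GTF2A1 lay just outside, with edgeR adjusted p of 0.0548, 0.0529, 0.0573 and 0.0503. TAF1, TAF6L and TAF9 passed without DMSO 3 (0.0356, 0.0325 and 0.0396) and GTF2A1 without DMSO 2 (0.0223). POLR2A had DMSO counts but also 130 in erlotinib 2, and its edgeR adjusted p of 0.222 became 0.00501 without that library.

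The members with high erlotinib counts had fitted values near or above 0 that rested on 1 library. MED1 had a log2 fold change of 4.42 (edgeR adjusted p = 0.359), which became -9.36 without erlotinib 1. MED18 at 1.07 (adjusted p = 0.760) became -11.03 without erlotinib 3, where it was then called lower, and GTF3C1 at 0.97 (adjusted p = 0.772) became -10.65 without erlotinib 1, also called. TAF5 stood at 0.19 and fell to -2.09 without erlotinib 3. TAF9B at -0.42 and MED12L at -1.70 were called lower once erlotinib 1 was left out (edgeR adjusted p = 0.00515 and 0.00528). The signs of TAF9B and MED12L turned under scaling by library totals, to 2.40 and 1.15.

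For single sgRNAs none of the 285 members with a count passed the quasi-likelihood test after adjustment (lowest adjusted p = 0.0998), and 0% of all 74555 tested sgRNAs did. At an unadjusted p under 0.05 the same test had 79 member sgRNAs lower (27.7%, all sgRNAs 31.2%) and the likelihood ratio test 97 lower (34.0%, all sgRNAs 36.6%) and 2 higher (all sgRNAs 0.84%). The 2 higher sgRNAs were the TAF5 sgRNA with 2006 counts and the GTF3C1 sgRNA. DESeq2 gave an adjusted p to 139 member sgRNAs and called 95 lower (68.3%), against 77.7% of all sgRNAs with one. By complex the likelihood ratio test had from 4 of 20 in TFIIH and 6 of 28 in RNA polymerase III to 10 of 23 in RNA polymerase I and SL1 and 5 of 9 of the other TAFs. RNA polymerase III, with 9 of 10 genes called lower, was thus near the bottom in this test of single sgRNAs. With DESeq2, however, 9 of its 11 sgRNAs with an adjusted p were called lower (81.8%, all sgRNAs 77.7%). Its place among the complexes therefore depended on the test, and differences between complexes were not tested.

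Transcription genes outside the symbol rule were also detected less often than other sgRNAs in DMSO, but not in each erlotinib library. A list of 61 genes (280 sgRNAs) held elongation and pausing factors, the kinases and cyclins of TFIIH and Mediator, and polymerase subunits and factors under other symbols. It also held factors of small nuclear RNA genes and of TBP, and assembly factors and tail phosphatases of RNA polymerase II. The list was detected at 30.0% ± 3.98 in DMSO, below the other sgRNAs in 3 of 3 libraries but close to them in DMSO 3 (34.3% against 34.6%). In erlotinib it was at 3.93%, 1.07% and 1.07%, above the other sgRNAs in erlotinib 1 and below them in the remaining libraries. Of the 60 tested 32 (53.3%) were lower and 28 did not pass, against the background of 69.2%. The assembly factors and tail phosphatases had 1 of 7 lower (14.3%), and the other groups of the list had 50% to 62.5%. The 6 with the smallest p were TCEB3, TCEA1, TCEB1, SUPT4H1, CDK13 and TBPL2, of which TCEA1, the elongation factor TFIIS, was at 88.8 ± 13.3 CPM in DMSO and at least 65.4-fold lower. CDK7, the TFIIH kinase, had 376, 318 and 22 counts in DMSO and none in erlotinib and was called lower (edgeR adjusted p = 0.00459), as were CDK19 and CCNC of the Mediator kinase module. CDK8, the Mediator kinase itself, had 282, 137 and 18 counts in DMSO and 858, 0 and 0 in erlotinib and did not pass (edgeR adjusted p = 0.697). SUPT5H, a pausing factor, had no count in any library for its 2 sgRNAs.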

How the data were processed

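The authors deposited unfiltered and unnormalized counts, 1 whole number for each 20-base sgRNA in each library; the counting program is not given in the sources used here. Conditions and replicate numbers come from the labels, some of which also name RNA, mice or another cell line; each condition has its own reverse primer and each replicate number its own forward primer, so an effect of the reverse primer cannot be told apart from that of the condition. No column was left unmapped. The table holds no expression values, so the cell line was not checked by markers.

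Members and gene lists were chosen with earlier results of these data known. Detection is the percent of listed sgRNAs with a count, and CPM divides by the library total. As in the study's methods, the 993 non-targeting sgRNAs were removed and upper-quartile factors at the 0.99 quantile were used; rows without any count were not tested. Counts, summed per gene or per sgRNA, were compared over 3 DMSO and 3 erlotinib libraries with edgeR's quasi-likelihood test (edgeR 4.0.16, limma 3.58.1, R 4.3.3) and Benjamini-Hochberg adjustment over all targets. The fits were also run on simulated counts in which few features changed and the spread was below that of the sgRNA counts. They were not tested under a loss of most sgRNAs as seen here. Alternatives were the likelihood ratio test that the study's methods name, DESeq2 1.42.0, 4 other scalings, 2 filters, a replicate block and leaving out each library. Summaries used pandas 2.3.3 and numpy 2.4.6 under Python 3.11.15, intervals scipy 1.17.1, and figures matplotlib 3.10.9.

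Named by rule were the highest and lowest member of each complex in DMSO, members in 2 erlotinib libraries or with the 6 highest erlotinib counts, the 3 smallest p in each direction, catalytic or defining subunits, paralogue pairs, members without DMSO counts and the 6 smallest p of the other transcription genes. Other genes were named after their values were seen, and 1 item that the rule names is not reported here. Of 106 member symbols 105 are current in RefSeq and 1 is a synonym. No genome sequence was used beyond RefSeq's windows of 250 bases before to 50 after each start site.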

Additional observations from a re-analysis of the deposited data

How the results depend on the processing

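The shares of member sgRNAs detected, and the detection of each complex relative to other sgRNAs, moved by less than 1 SD at 3 or 10 counts, with libraries thinned to 1574743 counts or without any 1 library, except RNA polymerase I and SL1, which went from 0.743 to 0.775 at 10 counts. No sgRNA sequence was listed for more than 1 symbol, so that alternative removed none. The count of member genes lower in erlotinib was 62 of 100 (all targets 69.2%). Without 1 library it was 46 to 55 of 95 to 100 (all targets 56.6% to 67.1%). With the full set of genes it was 50 to 58 under the other scalings (61.1% to 66.6%) and 76 with the likelihood ratio test (75.7%). DESeq2 called 79 of the 85 members with an adjusted p (all targets 15776 of 18561). The count was 42 of 53 with edgeR's expression filter (72.2%) and 67 of 81 with 10 counts in 2 libraries (77.2%). With the replicate number as a block it was 0 (all targets 0%), and 11 members were lower at an unadjusted p under 0.05. Whether libraries of equal number belong together is not known. Their deviations from the group means correlated at 0.011, -0.00135 and -0.000707. These values cannot decide it, since 75.6% of all tested targets were at 0 in all erlotinib libraries. The count of member sgRNAs lower, 0 (all sgRNAs 0%), was 20 of 25 with the expression filter (all sgRNAs 75.8%). It was 70 of 96 with 10 counts in 2 libraries (all sgRNAs 74.6%), 95 of 139 with DESeq2 (77.7%) and 97 of 285 with the unadjusted likelihood ratio test (36.6%). Without 1 library it was 0 to 51. This was 40 of 235 without DMSO 2 (all sgRNAs 19.3%) and 51 of 241 without DMSO 3 (22.9%), where 2 were higher, 1 each of TAF5 and MED12L. For the named genes 436 values kept direction and side of the threshold, 22 came to pass, 39 no longer passed and 20 turned sign. With the block, GTF3C1 was -7.71, MED18 -9.49, MED1 -0.40 and TAF5 -0.059, and TAF5 was -0.15 with the expression filter. Without 1 library, GTF3C1 ran from -10.65 to 1.76, MED1 from -9.36 to 5.08, MED18 from -11.03 to 1.80, TAF5 from -2.09 to 1.81 and TAF9B from -12.43 to 0.16. TAF9B was 1.20 with TMM, and TAF9B and MED12L were 4.12 and 2.86 with DESeq2 size factors, 2.40 and 1.15 with library totals and 1.37 and 0.12 with non-targeting totals. The cause was not tested. Of the member sgRNAs detected in DMSO, 62.2% were in 1 library only, which limits the tests of single sgRNAs.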

Other observations

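Members' detection in DMSO was also set beside the others' by base composition of the sgRNA, without a test. Below 40% GC, at 50 to 60% and at 60 to 70% the members stood at 31.4% ± 3.78, 30.2% ± 7.29 and 29.9% ± 2.67. The other targeting sgRNAs there stood at 36.6% ± 2.80, 36.4% ± 3.08 and 34.9% ± 3.03. At 40 to 50% GC the 158 member sgRNAs were detected at 24.3% ± 5.85 and other targeting sgRNAs at 36.5% ± 3.00, and at 70% GC or more the 26 member sgRNAs stood at 35.9% ± 4.44 against 32.3% ± 3.03, above the others in each of the 3 DMSO libraries. The members hold more sgRNAs at 40 to 50% GC (32.9% against 24.9%) and fewer at 70% or more (5.42% against 10.4%) than the other targets.

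Of member sgRNAs detected in DMSO 62.2% were in 1 library, 29.7% in 2 and 8.13% in 3, and for the other targeting sgRNAs it was 55.7%, 33.4% and 10.9%. One sgRNA of POLR3G differs at 2 bases from an sgRNA against ANKRD45, the only near match of a member sgRNA to a gene outside the list.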
